A study of Homo sapiens with 6 samples.

Results

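SPTBN1 encodes beta-II spectrin, and the peaks described here are those that overlapped this gene in RNA recovered with an anti-RBM8A antibody. The interval used for the gene was chr2:54683422-54898583 in hg19 coordinates, 215162 bp long. Of 5437 peaks in 3 deposited lists, 27 overlapped it, with 9 of 1480 in replicate 1, 8 of 2155 in replicate 2 and 10 of 1802 in replicate 3. The gene was selected on the fold and recurrence of its peaks in these same lists, so their number, fold, depth and recurrence are given as descriptions without a test.

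The RNA came from AGS, a human gastric adenocarcinoma cell line labelled wild type and grown without treatment. RNA immunoprecipitation and sequencing (RIP-seq) gave 3 immunoprecipitates and 3 input samples under the same batch label, and peaks were called by the authors in each immunoprecipitate separately. No control-antibody sample was among them and input data were not analysed here, so binding by RBM8A and nonspecific recovery of abundant RNA cannot be told apart. The labels do not say whether replicates were separate cultures, and peak lists hold no expression level against which to check the cell line's markers.

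Beta-II spectrin is the widespread non-erythroid beta subunit of spectrin. It pairs with alpha-II spectrin into long tetramers that cross-link actin filaments beneath the plasma membrane, binds ankyrin, and in epithelial cells supports the lateral membrane. It has also been described as an adaptor for SMAD proteins in TGF-beta signalling. RBM8A, also called Y14, forms a heterodimer with MAGOH inside the exon junction complex, which splicing deposits on RNA upstream of exon-exon junctions and which takes part in export, localisation and nonsense-mediated decay. The SPTBN1 transcript is long and has many junctions, and whether the peaks lie near them was not tested.

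RefSeq lists 2 transcript starts for SPTBN1 on the plus strand of GRCh38.p14, so positions are given here in the direction of transcription. The second start lies 102056 bp after the first. The sequence before it is shown because the only peak ahead of the main group of peaks began a similar distance into the gene. These are the 250 bases that end just before the second start, chr2:54558133-54558382 in GRCh38.p14, plus strand, from RefSeq. Capitals mark GGGCGG and its reverse complement CCGCCC, the core of the GC box, which occurs on either strand in the same window of 42.6% of the 35116 promoters in the table.
SPTBN1 second start: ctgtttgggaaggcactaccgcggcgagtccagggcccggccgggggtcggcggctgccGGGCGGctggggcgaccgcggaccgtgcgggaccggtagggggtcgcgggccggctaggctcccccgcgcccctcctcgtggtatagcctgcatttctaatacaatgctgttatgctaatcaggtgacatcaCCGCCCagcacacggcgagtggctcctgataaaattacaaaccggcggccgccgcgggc
This window was 68.4% G or C, against a median of 58% over all promoters. The same window before the first start, which is not shown, was 77.2% G or C and held 3 GGGCGG and 4 CCGCCC. A match of these letters is a description and not a binding site.

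The lone early peak was found in replicate 3 only, at chr2:54785618-54786191 in hg19. It was 574 bp wide, with its summit at 54785965, a fold of 5.44 and 10 fragments at the summit (95% Poisson interval 4.80 to 18.4). Fold is the authors' value for each peak, the pileup of fragments at the summit over the level expected there after 1 is added to both. The pileup and the expected level were both recovered from the fold and its p-value. No peak of replicates 1 and 2 overlapped it, and the nearest summits in those lists lay 54073 and 58228 bp away. The peak covered 102196 to 102770 bp from the start of the interval, so it began 140 bp past the distance that separates the 2 RefSeq starts. The long noncoding RNA SPTBN1-AS1 starts on the opposite strand 102378 bp after the first SPTBN1 start in GRCh38.p14, a distance inside that range. The peaks carry no strand, so RNA of SPTBN1 and of SPTBN1-AS1 cannot be told apart here. Distances were measured within each build and the builds were not aligned, and the interval is 42 bp longer than the 215120 bp of the RefSeq gene.

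The other 26 peaks lay together in the later part of the genomic interval, toward the 3′ end of the gene. They ran from 54839423 to 54895602, a span of 56180 bp or 26.1% of the interval, and ended 2981 bp before the interval did. The first 102 kb of the interval held no peak in any list, and a gap of 53231 bp separated the lone early peak from the group. Summits past the midpoint of the interval numbered 9 of 9, 8 of 8 and 9 of 10 in replicates 1, 2 and 3. These positions are genomic, with introns included, and do not give positions along the spliced transcript. Beyond the gene, the nearest peak lay 7286, 6636 and 7081 kb before the interval in replicates 1, 2 and 3. After it, the nearest lay 10557, 976 and 10647 kb away. The peak nearest to the interval from outside thus belonged to replicate 2.

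**Figure D1:**
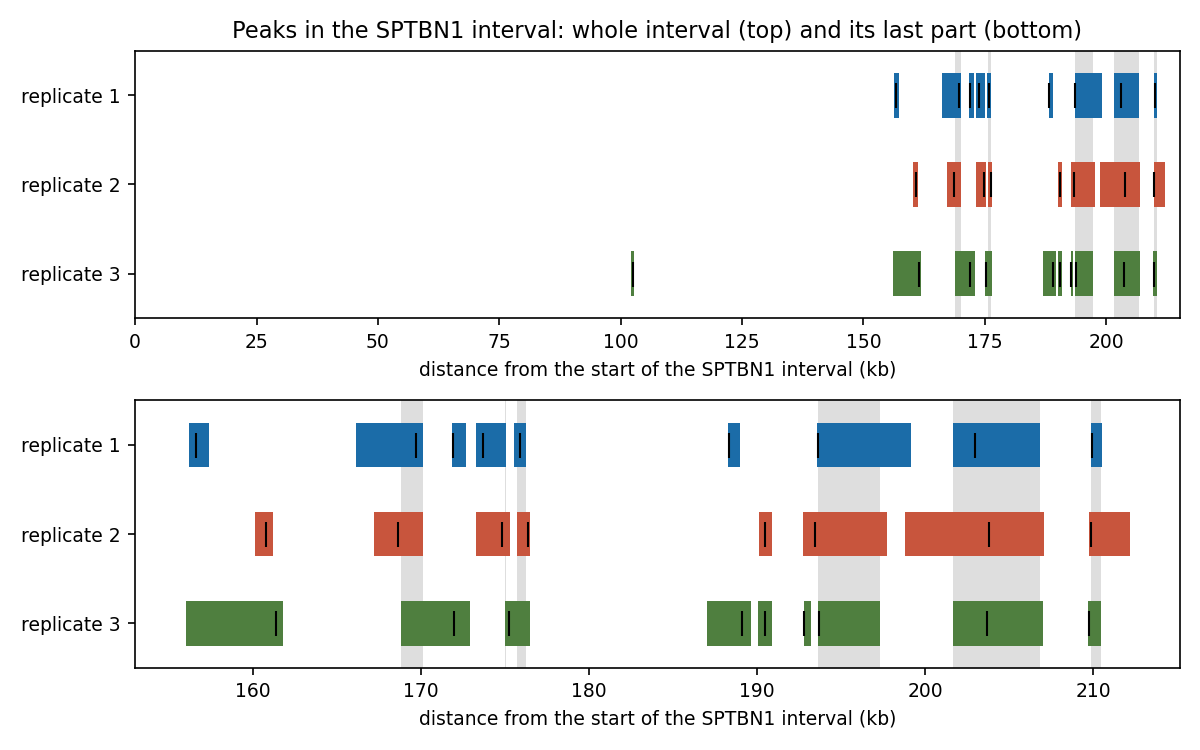
Peaks of the 3 replicates (bars) with their summits (black ticks) by distance from the start of the SPTBN1 interval in kb, for the whole interval above and its last part below. Grey bands are the 6 stretches covered in all 3 lists, and 26 of 27 peaks lie within 56180 bp toward the 3′ end.

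Joining overlapping peaks of the 3 lists gave 8 regions along the gene. Of these, 5 held a peak of every list, 2 held peaks of 2 lists and 1 was the lone early peak. Over the whole genome, 433 of 3584 regions (12.1%) held a peak of every list. In each list, 6 of the SPTBN1 peaks were overlapped by at least 1 bp in both other lists, which was 66.7%, 75% and 60% in replicates 1, 2 and 3. Over all peaks of those lists the shares were 32.4%, 22.2% and 26.5%. Of the other 9 SPTBN1 peaks, 8 were overlapped in 1 other list. Since the gene was picked for recurring peaks, nothing is read from these differences.

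The strongest recurring stretch was near the 3′ end, at chr2:54885108-54890278, where 5171 bp were covered in every list. Replicate 1 had a peak from 54885108 to 54890278 with a fold of 10.5 and 14 fragments at its summit. Replicate 2 had a longer peak, from 54882257 to 54890497, with a fold of 8.21 and 12 fragments. Replicate 3 had a peak from 54885101 to 54890450 with a fold of 9.27 and 13 fragments. The 95% Poisson intervals of these pileups, 7.65 to 23.5, 6.20 to 21.0 and 6.92 to 22.2, are wide, and with library depth unknown the pileups were not compared between replicates. Summits of replicates 2 and 3, at 54887235 and 54887123, were 112 bp apart, and that of replicate 1, at 54886397, lay 726 bp from the nearer of them. The starts of replicates 1 and 3 differed by 7 bp.

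Just ahead of it, a second stretch of 3705 bp was covered in every list, from 54877056 to 54880760. Here replicate 2 had its strongest SPTBN1 peak, from 54876188 to 54881145, with a fold of 10.7 and 14 fragments at 54876870. The peak of replicate 1, from 54877013 to 54882581, had a fold of 5.96 and 10 fragments at 54877058. In replicate 3 the same ground was split between a peak of 439 bp from 54876217 and one from 54877056 to 54880760, with folds of 4.34 and 3.94 and pileups of 10 and 11. The expected level at these summits was 0.846 in replicate 1, 0.400 in replicate 2, and 1.53 and 2.04 in replicate 3. This level was recovered from the fold, so at like pileups a lower fold gives a higher level by construction. All summits here lay between 54876249 and 54877128, within the first 682 bp of their peaks. Together with the preceding stretch this formed 1 region of 14310 bp, from 54876188 to 54890497, because the peak of replicate 1 and a peak of replicate 2 met.

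Earlier in the gene, the region from 54856677 to 54859901 held 2 peaks each of replicates 1 and 2 and 1 peak of replicate 3. Replicate 1 had a fold of 7.74 with 10 fragments at 54857138, and a second summit at 54859340 with a fold of 4.92 and 6 fragments. Replicate 2 had a fold of 8.21 with 12 fragments at 54858276, and a second summit at 54859787 with 3.79 and 5 fragments. Replicate 3 had its highest fold in the gene here, 10.9, with 14 fragments at 54858689, where the expected level was at its lowest, 0.374. The region recurred although its summits were spread out, and the best summits of the 3 lists lay within 1551 bp. Bases covered in every list numbered 629, in stretches of 54 and 575 bp.

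The neighbouring region from 54849566 to 54856338 recurred as well, with 1299 bp covered in every list, from 54852257 to 54853555. Replicate 1 had peaks with folds of 5.62 and 8.43 and pileups of 7 and 11, replicate 2 a peak with a fold of 3.28 and a pileup of 8, and replicate 3 a peak with a fold of 10.8 and a pileup of 15. Replicate 2 had the lowest fold here, and the expected level at its summit was 1.75. The peak of replicate 1 that overlapped it was the one with a fold of 5.62 and a pileup of 7. At the strongest summits of replicates 1 and 3, which the replicate 2 peak did not cover, the expected level was 0.423 and 0.479. Those strongest summits, at 54855364 and 54855373, were 9 bp apart. Replicate 2 had no peak at that point, so the agreement there is of 2 lists.

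The last region of the gene, from 54893118 to 54895602, recurred with a mean fold of 4.45, the lowest of the 8 regions. Folds were 3.53, 4.86 and 4.95 in replicates 1, 2 and 3, with pileups of 10, 18 and 9 fragments. The median folds over all peaks of those lists were 4.15, 4.16 and 3.97, so only replicate 1 was below its list. The pileup of 18 in replicate 2 was the highest of the 8 SPTBN1 peaks of that list (95% Poisson interval 10.7 to 28.4), although its fold ranked 591 of 2155. The expected level there was 2.11, 2.91 and 1.02, the highest of any SPTBN1 summit in replicates 1 and 2. The summits, at 54893388, 54893322 and 54893209, fell within 179 bp, the tightest of the 5 recurring regions, and each lay 83 to 134 bp after the start of its peak. In GRCh38.p14 the end of SPTBN1 is overlapped by the long noncoding RNA SPTBN1-AS2 on the opposite strand, so the strand of origin of fragments near the 3′ end is also unknown.

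The region at the start of the group, from 54839423 to 54845245, recurred only through replicate 3. Its peak in that list was 5823 bp wide, with a fold of 5.94 and 11 fragments, and overlapped a peak of replicate 1 and another of replicate 2 that did not meet each other. Those had folds of 3.52 and 4.29 and pileups of 4 and 5. The summits of replicates 1 and 2 were 4155 bp apart, and no base was covered in all 3 lists. Recurrence at this position thus rests on the wide peak of replicate 3, unlike that of the other 4 regions, where a base was covered in every list.

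Between these lay 2 short regions found in 2 lists each. From 54870442 to 54873082, replicate 3 had a fold of 9.29 with 12 fragments and replicate 1 had 4.22 with 5 fragments, with summits 785 bp apart. From 54873516 to 54874302, replicates 2 and 3 had narrow peaks of 731 and 782 bp, with folds of 4.29 and 5.00 and pileups of 5 and 6. Their summits, at 54873900 and 54873898, were 2 bp apart, the closest pair in the gene, and their ends differed by 5 bp. Replicate 1 had no listed peak at that position. The lowest pileup listed in any list was 4, so a missing peak there does not show that RNA was absent.

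**Figure D2:**
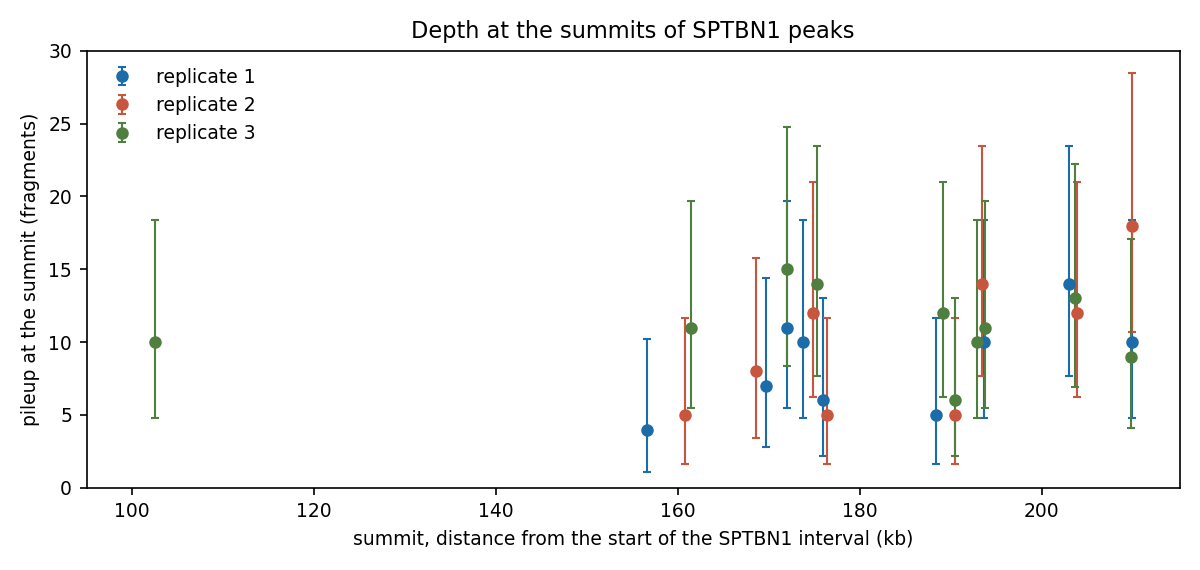
Fragments at the summit of each SPTBN1 peak (points, with exact 95% Poisson intervals as bars) by the summit's distance from the start of the interval in kb, coloured by replicate. Pileups run from 4 to 18, and the lone early peak of replicate 3 lies apart from the rest.

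Over the gene as a whole, the 3 lists covered similar amounts of sequence. Peaks covered 20611, 23153 and 25652 bp of the interval in replicates 1, 2 and 3, a mean of 10.8% ± 1.17 of its length (SD, n = 3). Within the span of the group at the 3′ end, the share covered was 40.8% ± 3.99 (SD, n = 3). Bases covered in every list numbered 11384, or 31.1% of the 36618 covered in any, while 10030 were covered in 2 lists and 15204 in 1. The same share over the whole genome is not given, so the 31.1% is a description only. The last 2 large stretches alone, of 3705 and 5171 bp, made up most of the shared sequence. Shared ground was thus concentrated in the part of the gene from 192.8 to 207.1 kb.

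Of the 26 SPTBN1 peaks overlapped in another list, 8 (30.8%) had a summit within 100 bp of a summit in another list. Over the whole genome this held for 33.7% of such peaks, so the share at SPTBN1 was near the background. The median distance to the nearest summit in another list was 413 bp for these SPTBN1 peaks and 281 bp for all overlapped peaks. The 8 summits formed 4 pairs, with 2 from replicates 1 and 3, 1 from replicates 2 and 3 and 1 from replicates 1 and 2. At no position did all 3 lists have summits linked within 100 bp. Peak ends were also compared, since they do not depend on a single deepest point. Of 54 peak starts and ends, 10 lay within 20 bp of the same kind of end in another list. For peaks overlapped in another list this was 19.2%, against 20.8% for such peaks over the whole genome, a share near the background and not a feature of SPTBN1.

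SPTBN1 peaks were deep for these lists. Their median pileup was 10, 10 and 11 fragments in replicates 1, 2 and 3, against 6 over all peaks of each list. A pileup of at least 10 was reached by 5 of 9, 4 of 8 and 8 of 10 SPTBN1 peaks, against 23.7%, 25.3% and 24.3% of all peaks. A −log10 q of at least 5 was reached by 4, 4 and 5 of them, against 13.4%, 15.6% and 16.9% of all peaks. Their median fold was 5.62, 4.57 and 5.69, against 4.15, 4.16 and 3.97 over all peaks. A fold of at least 5 was found for 5, 3 and 7 of them, against 16.2%, 26.7% and 20.9% of all peaks. The excess in fold was smallest in replicate 2, where 5 of the 8 peaks lay below 5. These values were in view when the gene was chosen, and they were not tested.

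The highest fold in the gene was 10.5, 10.7 and 10.9 in replicates 1, 2 and 3, a mean of 10.7 ± 0.187 (SD, n = 3). Each of these peaks had 14 fragments at its summit and the lowest expected level of its list, within 0.5%. The small SD thus reflects those levels of 0.423, 0.400 and 0.374. It leaves out the counting error of each pileup (95% Poisson interval 7.65 to 23.5). These best peaks lay at different positions, and they ranked 10 of 1480, 14 of 2155 and 11 of 1802 by fold. Of the SPTBN1 peaks, 3 of 9, 3 of 8 and 4 of 10 ranked in the top 50 by fold, out of 1480, 2155 and 1802 peaks in all. The gene was selected on fold, so nothing is read from these counts. By position those top peaks fell between 54849566 and 54859901 and between 54876188 and 54890497, and in replicate 3 also in that from 54870442. Widths ran from 439 to 8241 bp, with medians of 1178, 2236 and 2065 bp against 1870, 1557 and 1810 bp over the lists. No SPTBN1 peak reached 10 kb, a width that 9.27% of all peaks reached. The expected level was at the lowest of its list, within 0.5%, at 7 of 9, 3 of 8 and 1 of 10 SPTBN1 summits in replicates 1, 2 and 3. Over all peaks with a recovered pileup the shares were 50.6%, 42.7% and 40.2%, so replicate 2 was near its background while replicate 1 lay above and replicate 3 below. The expected level was itself recovered from the fold and its p-value, so it is not a measure separate from fold.

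**Figure D3:**
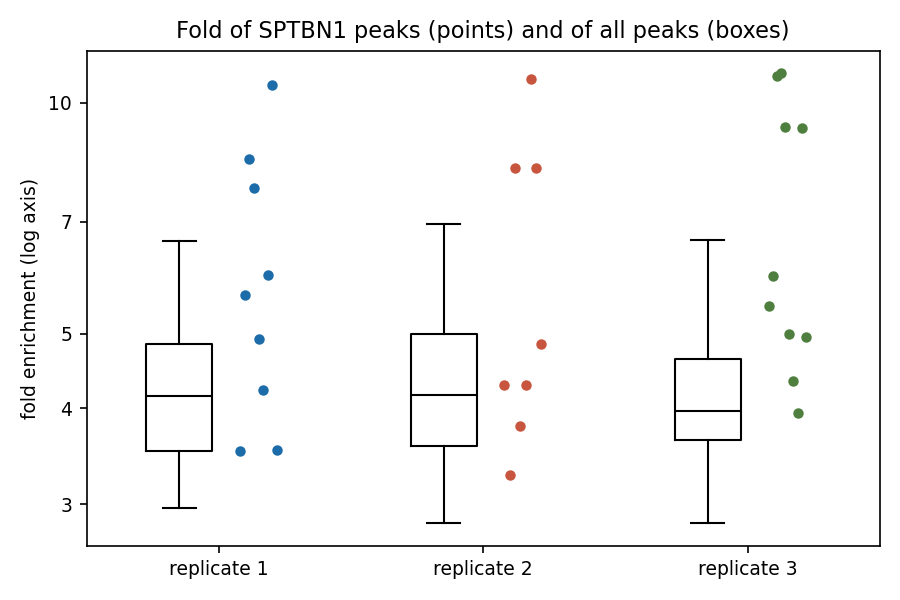
Fold enrichment on a log axis for each SPTBN1 peak (points) and for all peaks of the same list (box from the 25th to the 75th percentile with the median, whiskers from the 5th to the 95th percentile). The strongest SPTBN1 peaks, at folds of 10.5, 10.7 and 10.9, lie above the whiskers in each replicate, and others lie inside the boxes.

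To set the number of peaks in context, the genome was divided into tiles of the length of the interval, with 1 tile on the interval itself. A peak was found in 1653 tiles, with a median of 2 peaks of the 3 lists summed, and SPTBN1 held 27. Tiles with at least 8 peaks in every list, the lowest count at SPTBN1, numbered 2 (0.121%), of which SPTBN1 was 1. By peak number its tile ranked 3 of 895 in replicate 1, 8 of 1156 in replicate 2 and 1 of 1020 in replicate 3, and in replicate 2 the rank was shared by 5 tiles. It also held 5 regions found in all lists, the most of any tile, a number reached by 3 tiles. The other tiles start at arbitrary points while this one was fitted to the gene, which favours it, and tiles were not adjusted for the genes in them or their expression. SPTBN1 held 9.78%, 6.78% and 9.90% of the 92, 118 and 101 peaks on chromosome 2 in replicates 1, 2 and 3.

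**Figure D4:**
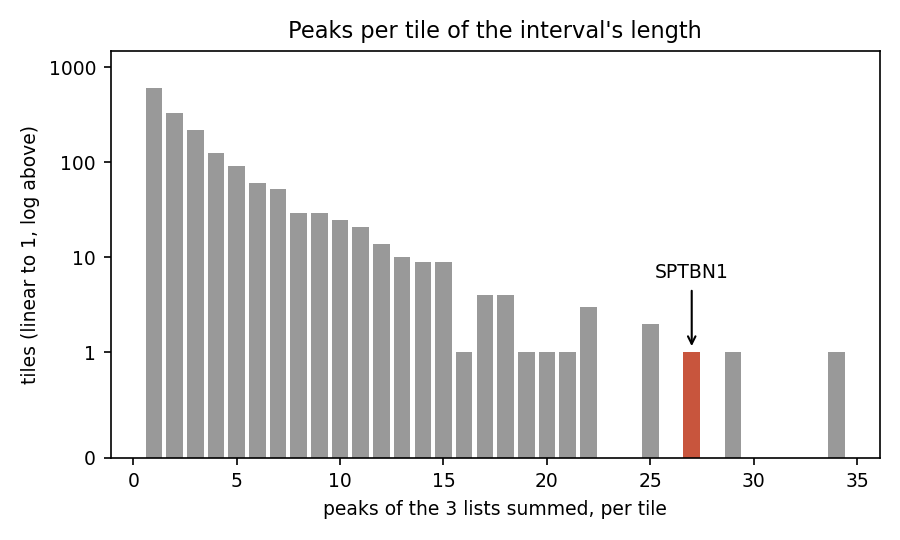
Number of tiles (linear up to 1, log above) by the peaks of the 3 lists summed in them, for 1653 tiles of 215162 bp that held a peak. The SPTBN1 tile, in red, held 27, and the fullest tile held 34.

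The gene assignment rests on the build. The lists name sequences in the style of hg19, with 52 peaks on such scaffolds and haplotypes and 0 on names in the style of GRCh38, although the submitters' processing notes name hg38. Read as GRCh38, the coordinates of all 27 peaks would fall within EML6, the neighbouring gene, and the RefSeq span of SPTBN1 would hold 0 peaks. An hg19 gene annotation was not used here, so peaks were not assigned to exons, introns or isoforms, and peaks in the other genes of the spectrin skeleton were not counted.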

How the data were processed

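RIP-seq of AGS cells gave 3 anti-RBM8A immunoprecipitates with 1 peak list each. MACS2 is among the tools in the submitters' processing notes, with HISAT2, SAMtools, GATK and FastQC. Settings, and the sample behind the expected level, are not given in those notes. Each deposited list holds, per peak, a fold, a ratio of pileup to expected level, a −log10 p-value and q-value, and a score of 10 times the −log10 q. Depth per library is unknown.

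Peaks that overlapped the SPTBN1 interval were taken, and coordinates are written from 1. Whole pileups up to 400 that gave fold and −log10 p within 0.0005 were searched, assuming a pseudocount of 1 and the Poisson upper tail. They were found for 27 of 27 SPTBN1 peaks and 5426 of 5437 in all. Intervals cover counting error only, not the choice of the summit. Lists were joined at 1 bp of overlap. No test was run, since the gene was chosen on these peaks. Promoters came from RefSeq (SPTBN1 matched by symbol). The gene and the comparisons were chosen with earlier results of these data known, and the rule for naming was every peak of SPTBN1. Alternatives were a stricter q or fold, summits in the interval, peaks under 10 kb, 50% overlap of both peaks, summits within 100 bp, and leaving out each replicate. The pileup search and the joining were tested on simulated data. Computations ran in scipy 1.17.1, pandas 2.3.3 and numpy 2.4.6 under Python 3.11.15, with plots by matplotlib 3.10.9.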

Additional observations from a re-analysis of the deposited data

How the results depend on the processing

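The share of summits past the midpoint of the genomic interval was 96.7% ± 5.77 (SD, n = 3). It was 95% to 100% with a stricter q or fold, by summit, under 10 kb and without each replicate. The overlap rules do not enter it. Counting peaks by summit, or using peaks under 10 kb, changed no value. With a −log10 q of at least 5, a mean of 4.33 peaks per list, 2 regions in all lists, 5225 shared bases and a share of 46.7% overlapped in both other lists were left. With a fold of at least 5 these were 5, 2, 5225 and 45.1%. Both filters keep fewer peaks by construction. With 50% overlap of both peaks, 3 regions and 33.6% were left, and with summits within 100 bp, 0 regions and 0%. Without 1 replicate, peaks per list were 8.5 to 9.5, regions in both remaining lists 5 to 7, shared bases 14280 to 15538, and the overlapped share 70.8% to 90%, since fewer lists have to agree. Shares over all peaks of the lists are not given under these other rules. The values left for SPTBN1 therefore cannot be set against the shares over all peaks at 1 bp of overlap. No paired analysis was possible because inputs had no peak list here and no test was run. Pileups of 4 to 18 fragments limit what a single peak can show.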
